A study of Rattus norvegicus with 105 samples.

Results

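Nr4a1, Nr4a2 and Nr4a3 are the 3 genes of the Nr4a family of orphan nuclear receptors, and they were followed here through frontal cortex of the rat in 3 experiments. The members were every probe set that the platform's probe-to-gene table assigns to one of the 3 symbols, which gave 6 of the 31042 probe sets left after control probe sets were removed: 1 for Nr4a1, 2 for Nr4a2 and 3 for Nr4a3. Total RNA had been hybridised to Affymetrix rat arrays in 11 groups. In the lesion experiment, the ventral hippocampus (VH) had been lesioned for 12 arrays and 10 arrays were from sham rats. In the tetrodotoxin (TTX) experiment, TTX, a blocker of voltage-gated sodium channels, had been used to disrupt the ventral hippocampus for 11 arrays, and 9 arrays were from sham rats. In the neuroleptic experiment, in which dosing was chronic, 9 arrays were from vehicle rats, and clozapine was represented by 10 low, 9 medium and 8 high arrays and haloperidol by 9 arrays at each of the same levels. Both are antipsychotic drugs that block dopamine D2 receptors, haloperidol tightly and clozapine loosely, with a wider range of other receptors for clozapine. The dose levels are words without amounts, and strain, sex, age and the interval from treatment to dissection were not found among the labels. Nor do the labels tie each array to a rat of its own, so a p-value here measures spread between samples that may in part be technical.

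Nr4a proteins bind DNA at a short response element, as monomers or dimers, and their ligand pocket is filled by side chains, so that the amount of protein, more than a ligand, sets their activity. In neurons Nr4a1 (also called Nur77) and Nr4a3 (Nor-1) are immediate early genes: calcium and cyclic AMP signals act through phosphorylated CREB and its coactivators, and through MEF2 and SRF, to switch them on within the hour after synaptic activity. Nr4a2 (Nurr1) is inducible as well, but it also has a constitutive pattern, as a determinant of midbrain dopamine neurons and as a marker of the claustrum and of the deepest cortical layer. Nr4a1 and Nr4a2, but not Nr4a3, can form heterodimers with retinoid X receptors. Antipsychotic drugs are known inducers of Nr4a1 and Nr4a3 in the striatum and cortex.

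The promoters of Nr4a1 and Nr4a2 are shown because the CREB route starts there. Any link of these sequences with the levels or partner genes described further on was not tested. Sequences are from RefSeq on the GRCr8 build and run from 250 bases before to 50 bases after the annotated start, 5′ to 3′ on the gene's strand. Nr4a1 lies on the plus strand at chr7:134259888-134260187 and Nr4a2 on the minus strand at chr3:62104838-62105137. Capitals mark the core of the cyclic AMP response element (CRE), TGACG or its reverse complement CGTCA, searched on both strands.
Nr4a1: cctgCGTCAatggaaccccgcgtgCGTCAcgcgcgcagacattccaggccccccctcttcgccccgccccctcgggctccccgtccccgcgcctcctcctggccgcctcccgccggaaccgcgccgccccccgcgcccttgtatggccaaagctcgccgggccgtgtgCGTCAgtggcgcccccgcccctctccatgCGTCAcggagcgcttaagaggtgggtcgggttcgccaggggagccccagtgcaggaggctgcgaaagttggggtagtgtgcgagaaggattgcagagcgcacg
Nr4a2: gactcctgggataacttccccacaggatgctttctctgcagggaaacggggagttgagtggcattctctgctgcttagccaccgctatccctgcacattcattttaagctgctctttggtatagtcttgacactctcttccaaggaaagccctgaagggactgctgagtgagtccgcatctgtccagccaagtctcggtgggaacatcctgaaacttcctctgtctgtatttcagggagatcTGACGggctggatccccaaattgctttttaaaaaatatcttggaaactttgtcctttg
The Nr4a1 window held 4 such CRE cores, with first bases 246, 226, 82 and 53 bases before the start, and was 72.3% G and C. The Nr4a2 window held 1 core, 8 bases before the start, and was 48.7% G and C. Of 33469 rat promoters of the same length, 21.2% held a core and 0.236% held 4 or more. Neither window held the full palindrome TGACGTCA, present in 1.83% of promoters, the Nr4a monomer element AAAGGTCA, in 1.43%, a CArG box, the SRF element, in 1.64%, a MEF2 site, in 0.565%, or the TATA box TATAAA, in 14.2%. The full palindrome contains the core on both strands. The CArG box was searched as CC, 6 bases of A or T, and GG, and the MEF2 site as CTA, 4 bases of A or T, and TAG. Sites with a mismatch were not counted. A match of letters is a description of these windows and not a measured binding site. Nr4a3 was not matched in the promoter table. Of the 20 promoters found for other immediate early genes, 11 held a core, among them those of Dusp1 with 3, Egr1 with 2, and Junb and Egr2 with 1 each.

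The values are log2 intensities, normalised between the arrays of each experiment, and probe sets differ in brightness for reasons of their sequence, so levels are compared only within a probe set. Nr4a1 (probe set 1386935_at) had a mean log2 intensity of 11.79 over all arrays, above 78.3% of probe sets. Nr4a2 was read by 1369007_at, with a mean of 10.55, and by the dimmer 1387410_at, with a mean of 9.32. Nr4a3 was read by 1369067_at, with a mean of 11.91, by 1393389_at, with a mean of 10.87, and by 1369217_at, with a mean of 8.19. None of the 6 was at the floor of 32 intensity units on any array. The filter on low values kept the 60% of probe sets with the highest mean, 18625 in all, and 5 of the 6 members passed it in every experiment. The probe set 1369217_at lay above 31% of probe sets, was left out in every experiment, and is given by its levels only. Its group means lay between 7.87 and 8.46 with SDs from 0.36 to 1.30, and its highest and lowest groups, high and low clozapine, were 0.59 apart. Probe sets of a gene agreed to different degrees once group means had been taken off. In the order lesion, TTX, neuroleptic experiment, the Nr4a2 pair correlated with Pearson's r of 0.78, 0.81 and 0.65 (Spearman's rho 0.77, 0.78 and 0.69), and 1369067_at and 1393389_at of Nr4a3 with 0.90, 0.78 and 0.66 (rho 0.90, 0.73 and 0.71). Each of these 6 had an adjusted permutation p of 0.00065 or less for r and 0.0046 or less for rho, over 39 relations; without the 2 arrays farthest out r was between 0.60 and 0.83, and within sets of sample numbers, explained further on, between 0.44 and 0.94. The third Nr4a3 probe set gave r of 0.35, 0.17 and 0.01 against 1369067_at (rho 0.22, 0.03 and -0.06; adjusted permutation p of 0.195, 0.668 and 0.964 for r and 0.435, 0.932 and 0.752 for rho). Unless another is named, 1369007_at stands for Nr4a2 and 1369067_at for Nr4a3, as the brightest probe set of each.

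Across the 11 groups, mean Nr4a1 ran from 11.26 ± 0.29 (SD, n = 9) in TTX sham to 12.43 ± 0.57 (SD, n = 9) in medium clozapine. From the top, the order was medium clozapine, medium haloperidol (12.22), low haloperidol and low clozapine (both 11.95), high haloperidol and high clozapine (both 11.92), lesion sham (11.69), vehicle (11.66), TTX (11.52), lesion (11.38) and TTX sham. No neighbours in that order were apart by more than the larger of their SDs. Nr4a3 ran from 12.39 ± 0.23 (SD, n = 9) in medium clozapine through 12.28 in medium, 12.22 in high and 12.21 in low haloperidol, 12.11 in low clozapine, 11.92 in high clozapine and in vehicle, 11.76 in TTX, 11.70 in TTX sham and 11.65 in lesion sham to 11.13 ± 0.47 (SD, n = 12) in lesion. The last step was the single gap between neighbours, 0.51, that exceeded the larger SD. At 1393389_at lesion was lowest too, but the same step was 0.37, under the larger SD of 0.47. At the dim 1369217_at lesion (8.18) lay above lesion sham (8.04). Read by the brightest probe set of each gene, Nr4a2 had the smallest span, 0.59 against 1.17 for Nr4a1 and 1.26 for Nr4a3. Nr4a2 ran from 10.96 ± 0.37 (SD, n = 11) in TTX to 10.37 ± 0.47 (SD, n = 12) in lesion. Between them came TTX sham (10.68), low haloperidol (10.58), medium and low clozapine (10.56 and 10.55), lesion sham (10.50), high haloperidol (10.49), high clozapine (10.48), medium haloperidol (10.46) and vehicle (10.41), with no neighbours apart. The second Nr4a2 probe set, 1387410_at, spanned 0.73, and the dim Nr4a3 probe set 1369217_at spanned 0.59. For the brightest probe set of each gene, the highest and the lowest group came from different experiments. The experiments were run as separate groups, so a step from one experiment to another and a difference between the experiments cannot be told apart. The means of all 6 drug groups were above those of the 4 surgical and sham groups for Nr4a1 and Nr4a3, with vehicle itself at 11.66 and 11.92.

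**Figure D1:**
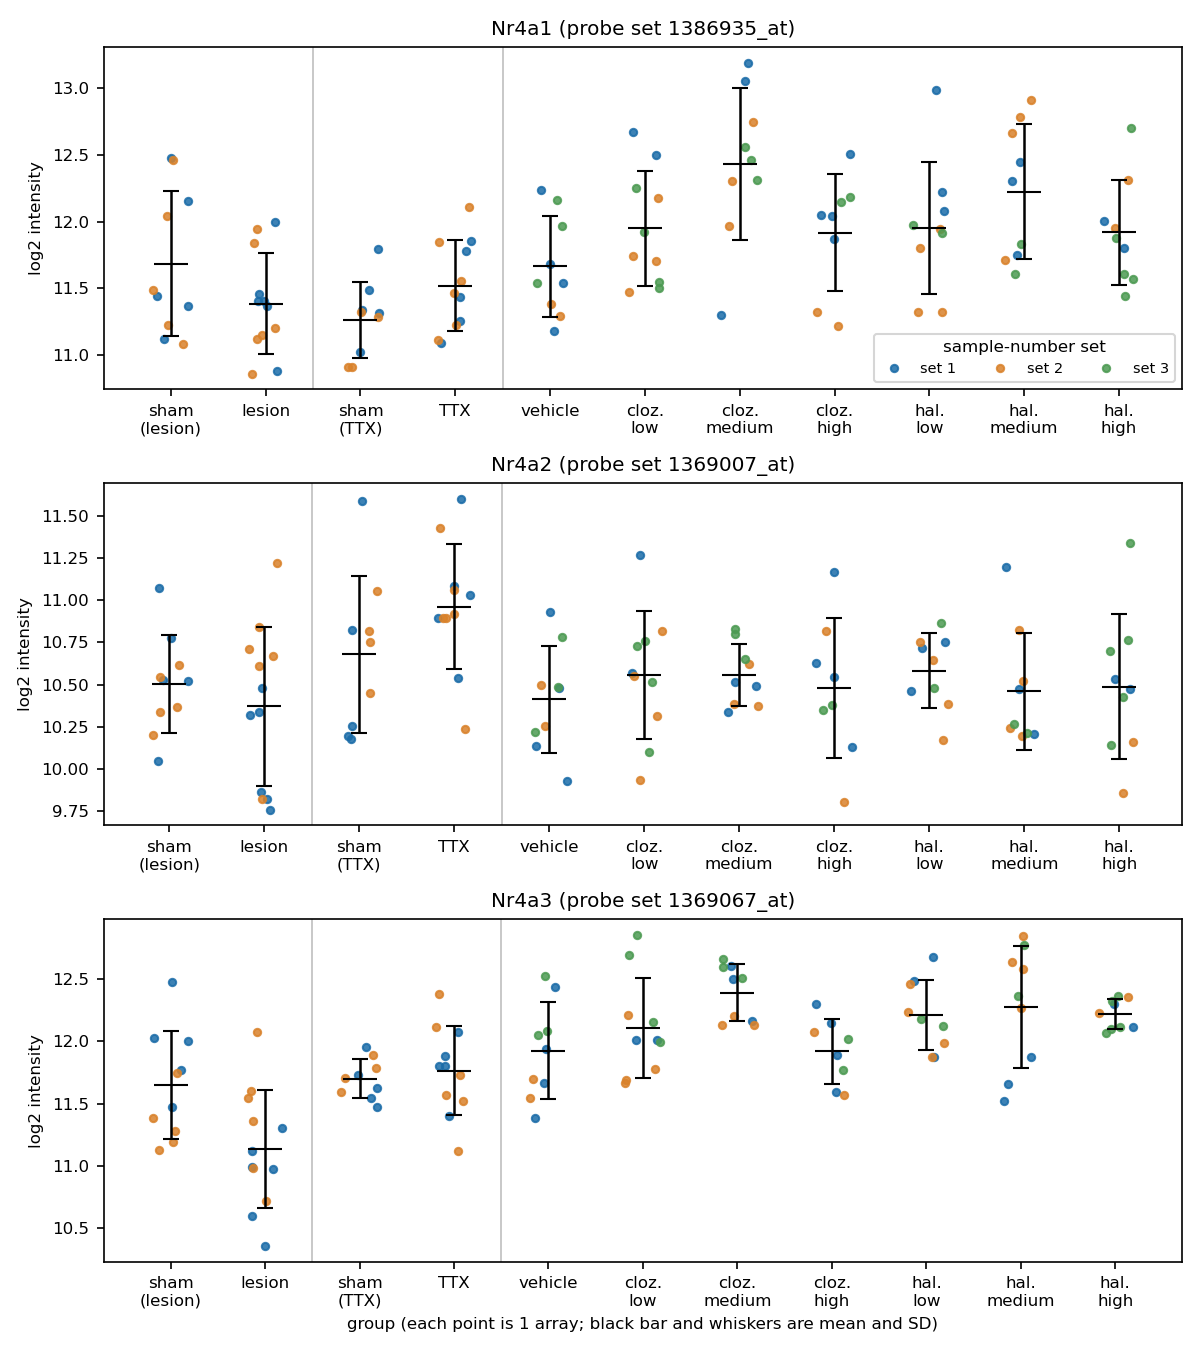
Log2 intensity (y axis) of the Nr4a1, Nr4a2 and Nr4a3 probe sets on every array, by group (x axis); each point is 1 array, coloured by its set of consecutive sample numbers, and black bars give mean and SD. Nr4a1 was highest at medium clozapine (12.43) and medium haloperidol (12.22), Nr4a3 was lowest in the lesion group (11.13), and Nr4a2 group means spanned 0.59.

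The arrays themselves varied along the order of the sample numbers in their titles. The numbers were therefore cut into consecutive sets of equal size, 2 in each surgical experiment and 3 in the neuroleptic experiment. Many results, though not all, are given within the sets. The labels do not say what the numbers stand for. The first principal component held 16%, 21.8% and 23.1% of the variance in the lesion, TTX and neuroleptic experiments, and differences between the sets made up 37.7%, 61.7% and 67.8% of it, against at most 8.56% between groups. By correlation, 5 arrays stood apart from the others of their experiment, 1 each in lesion, lesion sham, TTX, medium haloperidol and high haloperidol, and results without them are in the closing part. No arrays were identical (highest correlation 0.968). General neuronal markers lay at a median 99th percentile and excitatory neuron markers at 95.2, and the 7 striatal markers measured at 56.3. In such bulk RNA, fewer cells of a type and less RNA per cell cannot be told apart.

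The lesion comparison asked how loss of ventral hippocampal input relates to gene expression in its frontal target. Nr4a3 was the family member with the lowest level in lesioned rats relative to sham, Nr4a1 was lower by less, and Nr4a2 showed no common direction. None of the 5 tested probe sets passed an adjusted p of 0.05 (limma, Benjamini-Hochberg over all probe sets), and 0% of all 18625 did; 2 of the 5 had an unadjusted p under 0.05, as had 7.81% of all. The Nr4a3 log2 intensity ran over 10.36, 11.05 and 12.07 (lowest, median, highest) in lesion and 11.12, 11.61 and 12.48 in sham. The ranges overlapped, and 11 of the 12 lesion arrays lay below the sham mean. The difference was -0.51 ± 0.18 (SE), a fold of 0.701, with a 95% confidence interval from -0.89 to -0.13 and an adjusted p of 0.587. The second tested Nr4a3 probe set, 1393389_at, differed by -0.37 ± 0.18 (adjusted p = 0.635), with 10 of 12 arrays below the sham mean, and the 3 Nr4a3 probe sets averaged gave -0.25. Nr4a1 ran over 10.86, 11.38 and 12.00 in lesion and 11.08, 11.46 and 12.48 in sham, with a difference of -0.30 ± 0.18 (adjusted p = 0.731). For Nr4a2, 1369007_at differed by -0.13 ± 0.16 and 1387410_at by 0.11 ± 0.23, so that its probe sets lay on opposite sides of 0.

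The Nr4a3 difference was found in the first set of sample numbers and was near 0 in the second. In set 1 (numbers 36 to 46), the 5 sham arrays had a mean of 11.95 ± 0.37 (SD) and the 6 lesion arrays 10.89 ± 0.35 (SD), a difference of -1.06, and the ranges did not overlap, with the lowest sham array at 11.47 and the highest lesion array at 11.30. In set 2 (numbers 47 to 57), 5 sham arrays had a mean of 11.34 ± 0.24 (SD) and 6 lesion arrays 11.38 ± 0.48 (SD), a difference of 0.036. In set 1 all lesion arrays were therefore below all sham arrays, while in set 2 the highest value, 12.07, was a lesion array. That array was the lesion array that stood apart from the others by correlation. The probe set 1393389_at gave -0.82 and 0.079 in the same sets. Nr4a2 lay on both sides of 0, at -0.49 and 0.23 for 1369007_at and -0.37 and 0.59 for 1387410_at. Nr4a1 was lower in both, by values of -0.29 and -0.31. The difference between the sets was not tested.

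**Figure D2:**
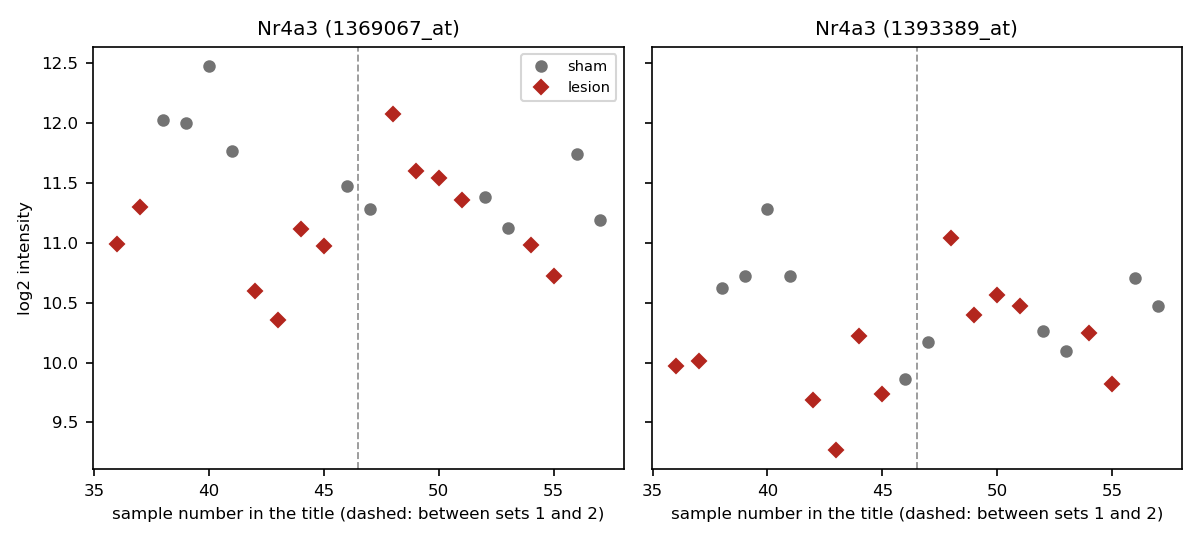
Log2 intensity (y axis) of 2 Nr4a3 probe sets against the sample number in the array title (x axis) for sham (grey circles) and lesion (red diamonds) arrays, with a dashed line between sets 1 and 2. Left of the line the lesion arrays lie below sham by 1.06 for 1369067_at; right of it the groups intermingle, at 0.036.

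The TTX comparison asked the same for sodium channel block, and not lesion, of the ventral hippocampus. Whether the block was still present at dissection is not given by the labels. Here Nr4a1 and Nr4a2 were slightly higher than in sham and Nr4a3 was near it, and again 0 of 5 tested probe sets passed (limma), against 0% of all; 0 of 5 had an unadjusted p under 0.05, against 4.63% of all. Nr4a2 ran over 10.23, 10.92 and 11.60 in TTX and 10.17, 10.75 and 11.59 in sham, and differed by 0.28 ± 0.17 (SE; adjusted p = 0.999), with 9 of 11 TTX arrays above the sham mean. Its probe set 1387410_at gave 0.38 ± 0.27, also in 9 of 11. Nr4a1 ran over 11.09, 11.47 and 12.11 in TTX and 10.91, 11.32 and 11.79 in sham, and differed by 0.26 ± 0.13 (adjusted p = 0.999), at 0.092 in set 1 and 0.45 in set 2. Nr4a3 differed by 0.063 ± 0.12 at 1369067_at (0.13 and -0.0067 within the sets) and 0.044 ± 0.14 at 1393389_at (0.2 and -0.12). Its interval for 1369067_at, -0.19 to 0.32, overlapped the lesion interval of that probe set, -0.89 to -0.13. Set against each other directly, the lesion difference minus the TTX difference was -0.57 ± 0.23 for Nr4a3 (adjusted p = 0.71), -0.56 ± 0.24 for Nr4a1 (adjusted p = 0.739) and -0.41 ± 0.25 for Nr4a2 (adjusted p = 0.82). With the 3 probe sets of Nr4a3 averaged, its value was -0.14 (adjusted p = 0.966), and over the 12 alternative settings it ran from -0.65 to -0.14. So 0 of 5 passed, against 0% of all, and 2 of 5 had an unadjusted p under 0.05, against 6.34% of all.

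**Figure D3:**
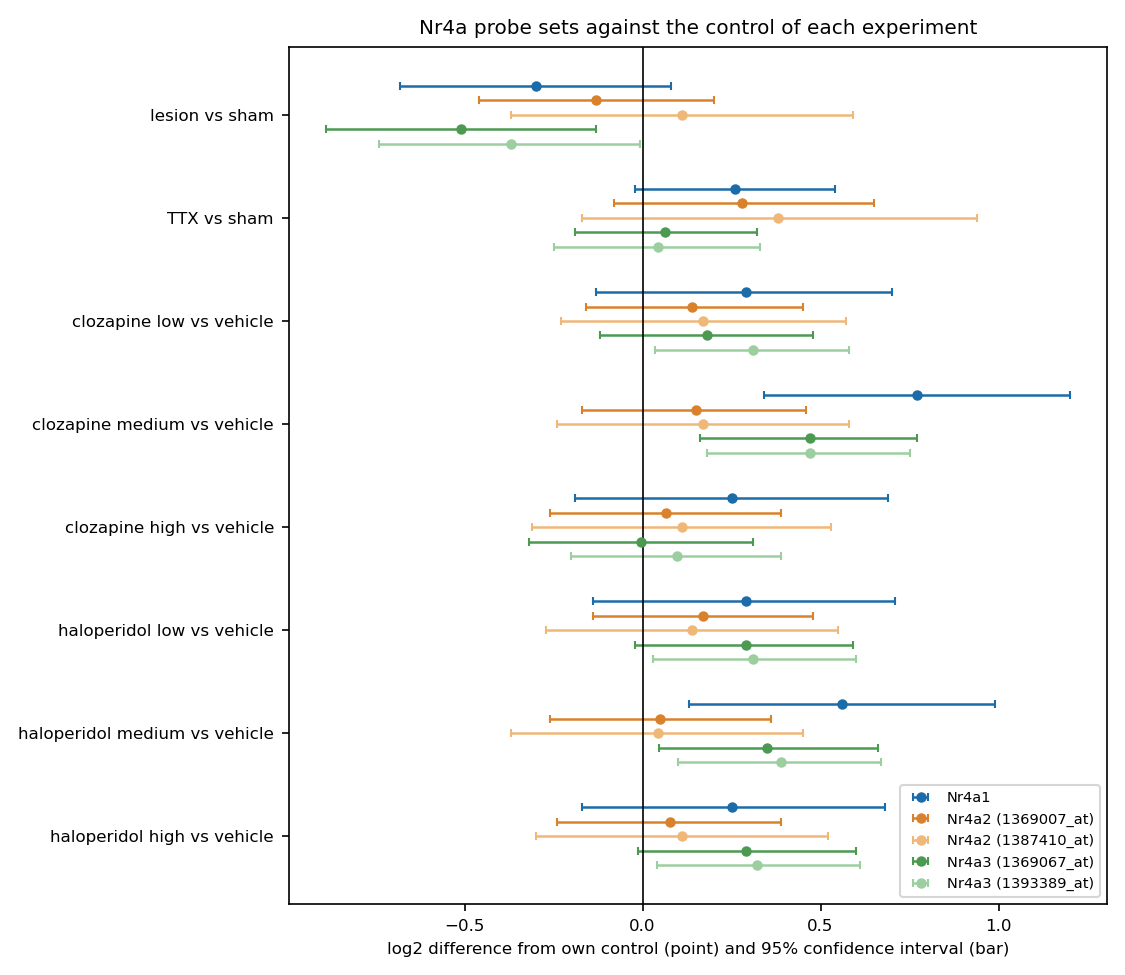
Log2 difference from the control of the same experiment (x axis; points, with 95% confidence intervals from limma as bars) for the 5 tested Nr4a probe sets in 8 comparisons (y axis). Nr4a3 lies left of 0 in the lesion comparison (-0.51) and Nr4a1 furthest right at medium clozapine (0.77).

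In the neuroleptic experiment, drug levels were compared with the same 9 vehicle arrays, so the clozapine and haloperidol differences share their control and are given side by side. Nr4a1 and the tested Nr4a3 probe sets were higher than vehicle with both drugs, by folds between 1.16 and 1.35, while Nr4a2 was within 1.11-fold. None of the 5 probe sets passed the threshold with either drug (limma), against 0% of all probe sets for clozapine and 0.0161% for haloperidol; 2 and 3 of the 5 had an unadjusted p under 0.05, against 3.81% and 6.73% of all. Averaged over the dose levels, Nr4a1 differed by 0.44 ± 0.17 (SE) with clozapine (fold 1.35, adjusted p = 0.977) and 0.37 ± 0.17 with haloperidol (fold 1.29, adjusted p = 0.717), and in each case 21 of 27 arrays were above the vehicle mean. Nr4a3 differed by 0.21 ± 0.13 with clozapine and 0.31 ± 0.13 with haloperidol at 1369067_at, and by 0.29 ± 0.12 and 0.34 ± 0.12 at 1393389_at (adjusted p = 0.977 and 0.567), where 23 and 22 of 27 arrays were above. Over the 13 alternative settings 1369067_at ran from 0.12 to 0.22 with clozapine and from 0.19 to 0.31 with haloperidol. The untested Nr4a3 probe set 1369217_at was at folds of 0.912 with clozapine and 0.943 with haloperidol. Nr4a2 differed by 0.12 ± 0.13 and 0.098 ± 0.13. Within the sets, Nr4a1 was at 0.75, 0.46 and 0.25 with clozapine and at 0.51, 0.74 and -0.054 with haloperidol, and Nr4a3 at 0.28, 0.31 and 0.085 and at 0.22, 0.71 and 0.086. The vehicle arrays numbered 4, 2 and 3 in the sets.

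No Nr4a probe set separated the 2 drugs. Clozapine minus haloperidol was 0.069 for Nr4a1, with an interval from -0.18 to 0.32, 0.02 for Nr4a2 (-0.16 to 0.20) and -0.098 for Nr4a3 (-0.28 to 0.08). Thus 0 of 5 passed (limma), as against 1.2% of all probe sets, and 0 of 5 had an unadjusted p under 0.05, as against 15.2%. An interval that spans 0 does not show that the drugs acted alike. Within the sets, clozapine minus haloperidol was 0.24, -0.29 and 0.3 for Nr4a1. It was 0.07, 0.078 and 0.023 for Nr4a2 and 0.059, -0.4 and -0.00074 for Nr4a3.

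By dose level, the medium level of both drugs had the highest Nr4a1. Nr4a1 ran over 11.18, 11.54 and 12.24 in vehicle and 11.30, 12.46 and 13.19 in medium clozapine, and 8 of the 9 medium arrays were above the vehicle mean while 1, at 11.30, lay among the low vehicle arrays. The difference was 0.77 ± 0.21 (SE), a fold of 1.70, with an interval from 0.34 to 1.2, an unadjusted p that ranked 21st among all 18625 and an adjusted p of 0.534. At low and high clozapine Nr4a1 differed by 0.29 ± 0.21 and 0.25 ± 0.22. With haloperidol it differed by 0.29 ± 0.21 at the low, 0.56 ± 0.21 at the medium and 0.25 ± 0.21 at the high level. Within the sets, Nr4a1 was at 0.93, 0.44 and -0.082 at low clozapine and 0.46, -0.07 and 0.27 at high clozapine. It was at 0.77, 0.26 and 0.053 at low haloperidol and 0.24, 0.79 and -0.047 at high haloperidol. Nr4a1 at medium clozapine was above vehicle in all 3 sets, by 0.86, 1 and 0.55, and at medium haloperidol by 0.51, 1.18 and -0.17. Nr4a3 ran over 11.38, 11.94 and 12.52 in vehicle and 12.13, 12.50 and 12.66 in medium clozapine, so that all 9 medium arrays were above the vehicle mean, by 0.47 ± 0.15 on average (fold 1.38, adjusted p = 0.95) and by 0.57, 0.53 and 0.37 within sets. Over the 13 alternative settings the medium clozapine difference of Nr4a3 ran from 0.29 to 0.47. At high clozapine Nr4a3 was at vehicle, with a difference of -0.0049 ± 0.16. With haloperidol Nr4a3 differed by 0.29, 0.35 and 0.29 at the low, medium and high level (SE 0.15 each). Its spread was narrowest at the high level, 12.22 ± 0.12 (SD, n = 9), where all 9 arrays were above the vehicle mean. Within the sets, however, the high level was at 0.35, 0.67 and -0.023, and 5 of its 9 arrays were in set 3. The low level was at 0.49, 0.51 and -0.067 and the medium level at -0.17, 0.96 and 0.35. Nr4a2 differed from vehicle by at most 0.17 at either probe set and any level. The 5 probe sets had 0 calls at every level, against 0%, 0.0215% and 0.00537% of all probe sets at low, medium and high clozapine and 0%, 0.00537% and 0.0268% at the same haloperidol levels; those with an unadjusted p under 0.05 numbered 1, 3 and 0, and 1, 3 and 1, against 2.72%, 4.06% and 3.87%, and 4.25%, 4.69% and 7.75% of all. High minus low, the comparison of dose ends, was -0.033 ± 0.21 for clozapine and -0.032 ± 0.21 for haloperidol in Nr4a1, and -0.19 ± 0.15 and 0.0083 ± 0.15 in Nr4a3, with 0 of 5 called against 0% of all for both drugs and 0 of 5 with an unadjusted p under 0.05 against 3.24% and 5.52%.

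The 3 genes differed in how they varied from array to array inside the groups. Group means were subtracted from each probe set, and all tested probe sets with a gene name were ranked by Pearson's correlation with each Nr4a probe set over all arrays of the 3 experiments together. These correlations are descriptions; the arrays share normalisation and sets, and over all probe sets the median r was -0.01 or 0. For Nr4a1 the nearest gene was Arc, an activity-induced regulator of synaptic AMPA receptors, with r of 0.92, followed by the phosphatase gene Dusp1 (0.79), Junb (0.77) and Fos (0.63), 2 subunits of the AP-1 transcription factor, and Tiparp (0.58), a mono-ADP-ribosyltransferase. With Arc, r was 0.92, 0.89 and 0.92 in the lesion, TTX and neuroleptic experiments. For Nr4a3 the nearest were Egr2 (0.65) and Egr1 (0.60), activity-induced zinc finger transcription factors, Homer1 (0.54), a postsynaptic scaffold gene, Fos (0.50) and Mtrr (0.50), which reactivates methionine synthase. The probe set 1393389_at gave Egr1 (0.62) and Egr2 (0.59) too. For Nr4a2 the nearest was Lxn, or latexin, a carboxypeptidase inhibitor found in claustral and deep lateral cortical neurons, with 0.65 at 1369007_at and 0.76 at 1387410_at. At 1369007_at it was followed by Gfra1 (0.54), a receptor for the growth factor GDNF, C7h12orf75 (0.53), Gnb4 (0.47), a G protein subunit that also marks the claustrum, and Prdx4 (0.43), a peroxiredoxin. With Lxn, r at 1369007_at was 0.63, 0.85 and 0.57 in the lesion, TTX and neuroleptic experiments.

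**Figure D4:**
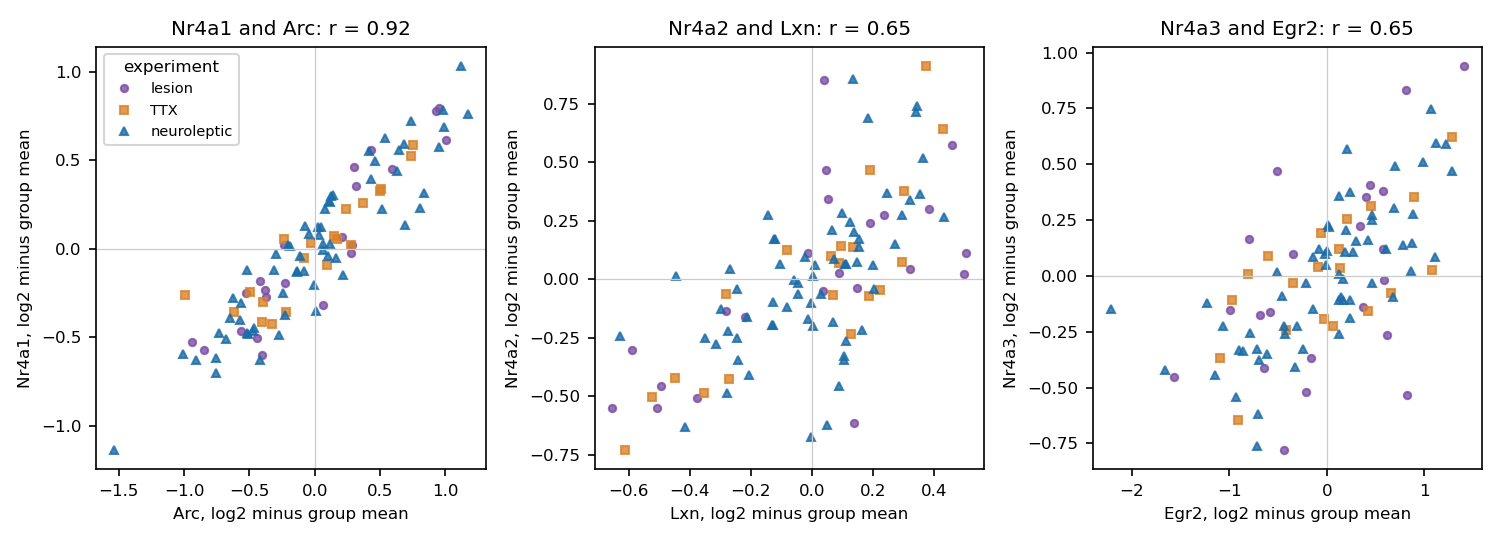
Log2 level minus group mean of an Nr4a probe set (y axis) against that of its nearest named gene (x axis) on every array, by experiment (colour and symbol). Pearson's r is 0.92 for Nr4a1 with Arc, 0.65 for Nr4a2 with Lxn and 0.65 for Nr4a3 with Egr2.

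The same contrast appeared across whole lists. Of 21 other immediate early genes measured, 18 had a correlation above 0 with Nr4a1, at a median of 0.31 with 6 above 0.4; for Nr4a3 these numbers were 17, 0.16 and 5, and for Nr4a2 12, 0.02 and 0. Over all probe sets, 0.23%, 0.24% and 0.075% were above 0.4 with Nr4a1, Nr4a3 and Nr4a2. Nr4a1 and Nr4a3 were near different genes of the list: Arc, Dusp1 and Junb stood at 0.92, 0.79 and 0.77 with Nr4a1 and at 0.16, 0.24 and 0.09 with Nr4a3, whereas Egr1, Egr2 and Homer1 stood at 0.33, 0.33 and -0.08 with Nr4a1 and 0.60, 0.65 and 0.54 with Nr4a3. Fos was near both, at 0.63 and 0.50. Of 8 claustrum and layer 6b markers, all 8 were above 0 with Nr4a2, at a median of 0.30, against 4 of 8 and 0.04 for Nr4a1. Signs alone did not set Nr4a2 apart, since all 8 were above 0 with Nr4a3 too, at a median of 0.10, and 7 of 8 with 1393389_at (0.16) and with the second Nr4a2 probe set, 1387410_at (0.18). Lxn and Gnb4 led the list for Nr4a2, and the others lay between 0.01 and 0.34; for Nr4a3 the highest was Cplx3, a complexin of layer 6b neurons, at 0.38. Oligodendrocyte markers were also positive with Nr4a2, 5 of 5 at a median of 0.30, and with Nr4a1, 5 of 5 at 0.27. With 1387410_at, 1369067_at and 1393389_at they were 5 of 5 too, at 0.23, 0.20 and 0.24, but 2 of 5 with 1369217_at (-0.02). Striatal markers were above 0 with both Nr4a2 probe sets, 7 of 7 at 0.18 and 0.16. Of the general neuronal markers, 2 of 5 were above 0 with each, at -0.09 and -0.12. The part of tissue composition in these correlations was not tested.

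**Figure D5:**
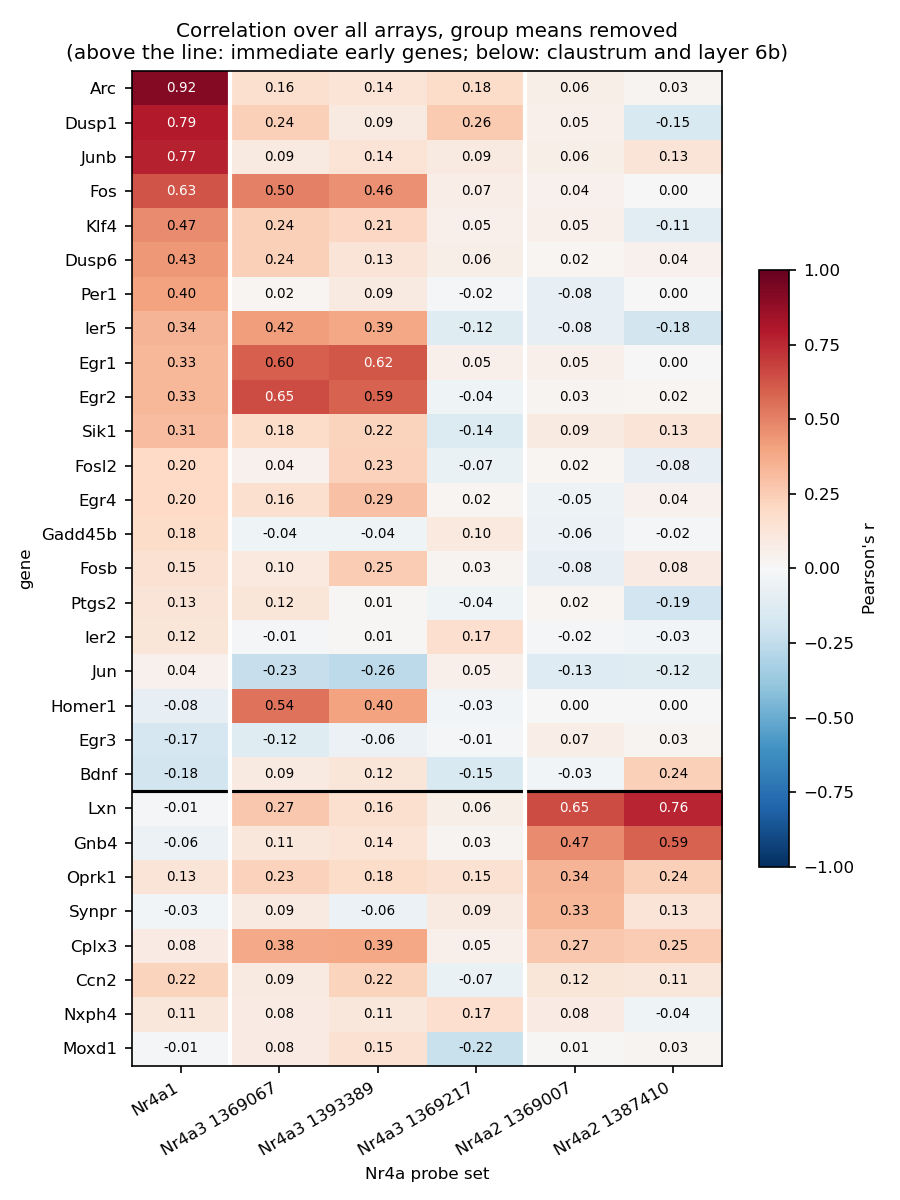
Pearson's r over all arrays after removal of group means (colour, with its value printed) between 6 Nr4a probe sets (x axis) and immediate early genes (y axis, above the line) or claustrum and layer 6b markers (below it). The Nr4a1 column is dark at Arc (0.92), the Nr4a3 columns at Egr2 and Egr1 (0.65 and 0.60 for 1369067_at), and the Nr4a2 columns at Lxn (0.65 and 0.76).

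Scores of these lists, the mean log2 level of the measured genes after group means were taken off, were correlated with the members inside each experiment, with arrays permuted within groups (100000 permutations, two-sided) and values adjusted over 39 relations. For all 39 relations the permutations ran across the sets of sample numbers. A shift between sets that both measures share can therefore lower these p-values. Nr4a1 followed the immediate early gene score with r of 0.67 in the lesion experiment (rho 0.65, adjusted permutation p = 0.00285 and 0.00606), 0.58 in the TTX experiment (rho 0.59, adjusted p = 0.0312 and 0.0265 by permutation) and 0.75 in the neuroleptic experiment (rho 0.79, adjusted permutation p = 6.5e-05 and 7.8e-05). Without the 2 arrays farthest out, r was 0.61, 0.47 and 0.72, and within sets it stayed between 0.50 and 0.81. Nr4a3 followed the score with r of 0.52 in the neuroleptic experiment (rho 0.56, adjusted permutation p = 6.5e-05 and 7.8e-05; 0.46, 0.76 and 0.62 within sets, 0.56 without the 2 farthest arrays), and of 0.56 in the TTX experiment (rho 0.49, adjusted permutation p = 0.0385 and 0.0903; 0.40 without 2 arrays; 0.48 and 0.66 within sets). In the lesion experiment r was 0.24 (rho 0.33, adjusted permutation p = 0.427 and 0.239; 0.29 without 2 arrays; 0.14 and 0.40 within sets). Nr4a2 with the same score gave -0.21, 0.09 and 0.08 (rho -0.22, -0.01 and 0.14; adjusted permutation p of 0.519, 0.778 and 0.691 for r and 0.451, 0.958 and 0.425 for rho). Without the 2 arrays farthest out these were -0.34, -0.13 and 0.30, and within sets -0.11 and -0.23, 0.05 and 0.17, and 0.07, 0.29 and -0.39. With the claustrum and layer 6b score, Nr4a2 gave 0.58 in the neuroleptic experiment (rho 0.55, adjusted permutation p = 6.5e-05 and 0.00013; 0.52 without 2 arrays; 0.45, 0.53 and 0.65 within sets), 0.57 in the TTX experiment (rho 0.51, adjusted permutation p = 0.0288 and 0.0675; 0.47 without 2 arrays; 0.65 and 0.54 within sets) and 0.41 in the lesion experiment (rho 0.43, adjusted permutation p = 0.0745 and 0.0903; 0.48 without 2 arrays; 0.38 and 0.49 within sets). Nr4a3 followed the claustrum and layer 6b score as well, with r of 0.60 in the TTX experiment (rho 0.52, adjusted permutation p = 0.0332 and 0.0675; 0.50 without 2 arrays; 0.54 and 0.70 within sets) and 0.27 in the neuroleptic experiment (rho 0.39, adjusted permutation p = 0.0288 and 0.0046; 0.28 without 2 arrays; 0.41, 0.20 and 0.12 within sets). In the lesion experiment it gave 0.31 (rho 0.32, adjusted permutation p = 0.267 and 0.245; 0.27 without 2 arrays; 0.26 and 0.34 within sets). Nr4a1 gave 0.25, -0.15 and 0.16 with that score (rho 0.22, -0.12 and 0.17; adjusted permutation p of 0.427, 0.691 and 0.312 for r and 0.457, 0.748 and 0.285 for rho). Whether Nr4a2 and Nr4a3 differed in their correlation with the score was not tested. The smallest p that these permutations can give, 1e-05, was reached for the neuroleptic relations printed with 6.5e-05.

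The members were less alike among themselves. Nr4a1 with Nr4a2 gave r of -0.09, 0.03 and 0.18 in the lesion, TTX and neuroleptic experiments (rho -0.06, 0.10 and 0.18; adjusted permutation p of 0.758, 0.91 and 0.267 for r and 0.854, 0.756 and 0.265 for rho). Nr4a1 with Nr4a3 gave 0.17, 0.06 and 0.31 (rho 0.22, 0.14 and 0.37; adjusted permutation p of 0.574, 0.865 and 0.0469 for r and 0.435, 0.711 and 0.0187 for rho). The neuroleptic value was 0.32 without 2 arrays and 0.20, 0.66 and 0.26 in the sets. Nr4a2 with Nr4a3 gave 0.37, 0.51 and 0.27 (rho 0.35, 0.37 and 0.39; adjusted permutation p of 0.186, 0.0381 and 0.0745 for r and 0.229, 0.191 and 0.00851 for rho). Without the 2 arrays farthest from the median of Nr4a2, r was 0.03, 0.30 and 0.43. The lesion value thus fell to near 0 without those arrays, and the TTX value was lower but still above 0. Within sets r was 0.28 and 0.49 in the lesion experiment and 0.75 and 0.39 in the TTX experiment. In the neuroleptic experiment it was 0.34, 0.41 and -0.04.

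Of the genes listed around the family, 3 passed the threshold (limma, Benjamini-Hochberg), each in 1 comparison of a clozapine level with vehicle. Arc and Fos, which were among the nearest genes to Nr4a1, rose at medium clozapine, the level at which Nr4a1 was highest. Arc ran over 10.84, 12.42 and 13.54 at medium clozapine and 10.28, 10.77 and 11.85 in vehicle, and rose by 1.46 ± 0.27 (SE; fold 2.76, adjusted p = 0.00993), with 8 of 9 arrays above the vehicle mean and 1.44, 1.97 and 1.16 within the sets. Fos ran over 11.11, 12.12 and 12.63 against 8.46, 10.07 and 11.93 in vehicle, and rose by 2.02 ± 0.39 (fold 4.05, adjusted p = 0.0113), with 9 of 9 arrays above the vehicle mean and 2.02, 2.99 and 1.44 within the sets. The groups overlapped for both genes. With only these 2 groups in the fit neither passed (adjusted p = 0.109 for Arc and 0.0917 for Fos), and Fos did not pass without vehicle replicate 1 (adjusted p = 0.053) or 5 (0.0597). Of the 18 immediate early genes tested there, 17 were higher, at a median of 0.36, against a median of 0.002 and 50.9% higher over all probe sets, and the 2 calls stand beside the 0.0215% called of all. At high clozapine Ccn2, a matricellular growth factor gene that marks layer 6b, rose by 0.60 ± 0.10 (fold 1.52, adjusted p = 0.00545), with all 8 arrays, 12.20 to 12.71, above the 9 of vehicle, 11.62 to 12.11, and 0.51, 0.73 and 0.65 within the sets. The other 5 tested markers of that list did not pass, and Nr4a2 was at 0.066 there, while 0.00537% of all probe sets were called.

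In the lesion, TTX and drug mean comparisons no gene of these lists passed. Of 14 upstream regulators, among them the CREB family, its coactivators, the MEF2 factors and SRF, 6 were higher and 8 lower in the lesion group (median -0.024), 8 and 6 with TTX (0.0064), and 7 and 7 with each drug (-0.0096 with clozapine and 0.0036 with haloperidol). Over all tested probe sets the median lay between -0.013 and -0.001 in these comparisons, and between 43% and 49.7% were higher. Camk4, the kinase that phosphorylates CREB in the nucleus, had the smallest p of this list in the lesion comparison, at -0.37 ± 0.12 (adjusted p = 0.506), and Srf that in the haloperidol comparison, at 0.15 ± 0.052 (adjusted p = 0.574). The other immediate early genes were lower in the lesion group in 12 of 17 tested genes (median -0.12), higher with TTX in 12 of 17 (0.095), and higher with clozapine in 14 of 18 (0.22) and haloperidol in 15 of 18 (0.17). The partners of each member differed in size: in the lesion comparison Egr1 was at -0.45 ± 0.11 (adjusted p = 0.404) and Egr2 at -0.77 ± 0.30 (adjusted p = 0.588), beside Nr4a3 at -0.51, while Arc was at -0.13 ± 0.23, beside Nr4a1 at -0.30. With clozapine Arc was at 0.84 ± 0.22 and Fos at 1.13 ± 0.32 (limma, adjusted p = 0.758 and 0.831), beside Nr4a1 at 0.44. With haloperidol Arc was at 0.61 ± 0.22 (limma, adjusted p = 0.646), beside Nr4a1 at 0.37. Egr1 was there at 0.58 ± 0.14 (limma, adjusted p = 0.232), beside Nr4a3 at 0.31.

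Of the 3 retinoid X receptor genes, the heterodimer partners, 2 were bright enough to be tested. Rxrg, the form with the most restricted expression in brain, was higher than control with TTX by 0.33 ± 0.14 (adjusted p = 0.999) and with haloperidol by 0.26 ± 0.096 (adjusted p = 0.646), and Rxrb was at -0.15 ± 0.074 in the lesion comparison (adjusted p = 0.671). Of 10 reported Nr4a targets, most of them genes of the dopamine neuron such as Th and Slc6a3, 3 were bright enough to be tested in this tissue: Aldh1a1, Vip and Bdnf. Bdnf, the neurotrophin gene, was at 0.35 ± 0.10 with clozapine and 0.24 ± 0.10 with haloperidol (adjusted p = 0.977 and 0.646), and Aldh1a1 and Vip were within 0.17 of control in the lesion, TTX and drug mean comparisons. The claustrum and layer 6b markers were even in direction, with 3 of 6 tested genes higher in the lesion, TTX and haloperidol comparisons and 2 of 6 with clozapine. Lxn was at 0.18 ± 0.15 with the lesion and 0.15 ± 0.13 with TTX, beside Nr4a2 at -0.13 and 0.28. The summed intensity of the 8 markers had a median of 34001 in lesion (25955 to 39051) and 31349 in sham (24770 to 33558), and of 34448 in TTX (27498 to 40080) and 31588 in its sham (27500 to 33299), and none of these markers was at the floor on any array; its part in the Nr4a2 differences was not tested.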

How the data were processed

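Frontal cortex RNA on 105 arrays had been deposited as 1 linear intensity per probe set for 31099 probe sets; which summarisation software the authors used is not given in the sources used here. Those deposited intensities had been scaled, with a trimmed mean (2% off each end) of 2500.6 to 2500.8 on every array, and carried no detection calls; 6.04% of values lay under 32. Samples were grouped by the labels' descriptions. From there, 57 control probe sets were dropped, values under a floor of 32 were raised to it, log2 values were quantile-normalised within each experiment, and the 60% of probe sets with the highest mean were tested. Models with 1 mean per group were fitted in limma 3.58.1 (R 4.3.3), 1 fit per surgical experiment and 1 for the 7 neuroleptic groups, with p-values adjusted by Benjamini-Hochberg over 18625 probe sets and calls at an adjusted p under 0.05. For lesion minus TTX, both surgical experiments were fitted together. A drug mean is the mean of its 3 dose levels. Precision is limited by how many arrays a group has.

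Gene names came from the platform table; 20826 of 31042 probe sets had 1 symbol, 436 had several and 9780 had none, and no Nr4a probe set had to be renamed. Named genes were all Nr4a probe sets, up to 4 genes of each list with the smallest p in a comparison, and the 5 genes most correlated with each brightest Nr4a probe set over arrays. The members and the gene lists were chosen with earlier results of these data known. Alternatives tried were the deposited scale, normalisation over all arrays, other floors and filters, log2 of value plus 32, a term for the sets of sample numbers, the sample number as a linear covariate, array weights, trended and robust moderation, only the groups compared, averaged probe sets per gene, and leaving out the 5 arrays that stood apart or each array in turn. The same settings were applied to the 3 list genes that passed the threshold, a choice made after seeing the data.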

Additional observations from a re-analysis of the deposited data

Results flagged for a closer look

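A sample far from the others of its group was looked for in each of the 54 combinations of a probe set and a group of 4 to 10 arrays, and 4 were found; chance alone marks about 1 in 20 such groups. For Nr4a2 (1387410_at), the lowest of 9 low haloperidol arrays, replicate 6, was at a log2 intensity of 8.17 against 9.10 for the nearest. For Nr4a3, the lowest of 9 TTX sham arrays at 1393389_at, replicate 3, was at 9.97 against 10.56. The other 2 were at the dim Nr4a3 probe set 1369217_at, which entered no test: replicate 9 of medium clozapine at 5.71 against 7.75, and replicate 1 of medium haloperidol at 6.10 against 8.02.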

How the results depend on the processing

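No paired analysis was possible because the labels carry no replicate numbers shared between groups. All 264 levels recomputed under other settings stayed within 1 SD, and 832 of 851 recomputed Nr4a differences kept their direction and their side of the threshold; no Nr4a probe set was called in any. The lesion difference of Nr4a3 ranged from -0.60 to -0.25, the smallest when its 3 probe sets were averaged, and Nr4a1 at medium clozapine from 0.73 to 0.80 (adjusted p 0.193 to 0.621); without the medium array at 11.30 it was 0.91, with an adjusted p of 0.0931. The number of arrays limits precision, and no detection calls were used.

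The 19 differences that reversed were all small. With deposited values they were clozapine minus haloperidol of Nr4a2 (-0.0038 and, for 1387410_at, -0.0024) and haloperidol high minus low of 1387410_at (0.031). With sets as a term they were Nr4a3 at high clozapine (0.014), and haloperidol high minus low of Nr4a3 (-0.068) and 1387410_at (0.0069); with the sample number as covariate the same were 0.0016, -0.018 and 0.0079, and Nr4a1 was 0.003. With array weights they were 1387410_at in the lesion comparison (-0.026), high minus low of Nr4a1 with clozapine (0.011) and haloperidol (0.018), and of 1393389_at with haloperidol (-0.014). Without the arrays that stood apart they were Nr4a1, haloperidol high minus low (0.0063), and Nr4a2 at high haloperidol (-0.031). With averaged probe sets they were Nr4a3 with TTX (-0.11), at high clozapine (0.072) and high minus low clozapine (0.064).

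Counts of called probe sets, none of them Nr4a, varied more. Without a filter there were 1 for lesion, 1 for mean haloperidol, 3 for high haloperidol and 49 for clozapine minus haloperidol (224 as reported). With sets as a term there were 6, 15 and 1338 for the last 3 and 10 for medium clozapine. The covariate gave 4 for lesion minus TTX, 2 for medium and 10 for high haloperidol. Array weights gave 529 for clozapine minus haloperidol, 10 for medium and 2 for high clozapine, and 3 for medium and 8 for high haloperidol. Averaged probe sets gave 1 for TTX, 1 for mean haloperidol, 0 for clozapine minus haloperidol, 2 for medium clozapine, 0 for medium and 11 for high haloperidol, and 3 for clozapine high minus low. A stricter filter gave 1 for mean and 7 for medium clozapine and 4 for its high minus low; deposited values, trended moderation and the arrays left out each gave 1 for mean clozapine, and the last also 65 for clozapine minus haloperidol and 3 for medium haloperidol. Fitting only the groups compared gave 1 for mean haloperidol, medium clozapine and high haloperidol.

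Leaving out each array in turn gave ranges of called probe sets from 56 to 666 for clozapine minus haloperidol, 1 to 5 for mean haloperidol, 0 to 7 for clozapine high minus low, 3 to 8 for high and 0 to 3 for medium haloperidol, 3 to 6 for medium and 1 to 2 for high clozapine, 0 to 2 for haloperidol high minus low, and 0 to 1 for lesion and mean clozapine. The Nr4a differences that crossed 0 in this way were those of 1393389_at with TTX (-0.042 to 0.12), of Nr4a2 for clozapine minus haloperidol (-0.013 to 0.056), at high clozapine (-0.032 to 0.16), at medium (-0.044 to 0.11) and high haloperidol (-0.031 to 0.15) and for clozapine high minus low (-0.18 to 0.019), of 1387410_at at medium haloperidol (-0.061 to 0.14) and high minus low for clozapine (-0.14 to 0.014) and haloperidol (-0.17 to 0.068), and of Nr4a3 at high clozapine (-0.073 to 0.07). High minus low also crossed 0 for Nr4a1 with clozapine (-0.12 to 0.067) and haloperidol (-0.13 to 0.097), and with haloperidol for Nr4a3 (-0.034 to 0.067) and 1393389_at (-0.063 to 0.09).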
